A study of Mus musculus with 4 samples.

Results

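Aldehyde dehydrogenases and aldo-keto reductases were described as 10 named mouse genes: Aldh3a1, Aldh3a2, Aldh1a1, Aldh2, Aldh7a1, Aldh9a1, Akr1c14, Akr1c13, Akr1b8 and Akr1b3. They were found by their symbols, older symbols or gene IDs in the platform annotation, and each gene was represented by its probe set with the highest mean level over the 4 arrays. Of the 10 genes, 9 had a probe set that names them alone, out of 18193 genes measured. Akr1b3, the aldose reductase of the polyol pathway, was not analysed here because 0 of its probe sets were listed. The probe sets were chosen by their mean level over the arrays, and the genes were proposed with earlier results of these arrays known, so their differences are given as a description.

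The samples were cells of the mouse osteosarcoma line K7M2, which spreads readily to the lung, grown in medium with serum. All are labelled as over-expressing a protein: GFP alone in 1 sample, or ezrinT567A-GFP in 3 samples (replicates 1 to 3). Ezrin tethers membrane proteins to cortical actin, and in ezrinT567A alanine takes the place of the regulatory C-terminal threonine, which removes a phosphorylation site. The labels used here do not state the promoter of the transgene, the species of ezrin, or whether the cells were a clone or a pool, and they do not say that the replicates were separate cultures. The p-values therefore measure only the spread between these arrays, with the single GFP array assumed to vary like the others. Levels are deposited RMA values on the log2 scale, and each difference is the ezrinT567A-GFP mean minus GFP, where 1 is a doubling.

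Aldehydes are reactive carbonyl compounds that arise from lipid peroxidation, alcohol, amino acids and retinoids. Aldehyde dehydrogenases oxidise them to carboxylic acids with NAD or NADP, and aldo-keto reductases reduce aldehydes and ketones, steroids among them, to alcohols with NADPH. Some genes of both families are known targets of the transcription factors NRF2 and AhR, and high aldehyde dehydrogenase activity is often used to mark stem-like tumour cells, in osteosarcoma too.

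Across the arrays, the median level of all genes lay between 5.00 and 5.06 and the lower quartile between 3.12 and 3.18. As a gauge of background, 11 genes of other tissues, such as Gcg and Umod, ranged from 1.72 to 5.69 with a median of 3.08. Their upper quartile was 4.58. The top of the range came from Ins2 (5.34 to 5.69), and Prm1 was next, at up to 5.15. Levels under the lower quartile are called near background here, and those under the median dim. The mean of the spike-in controls was 9.12 on the GFP array, against 9.93, 10.9 and 10.2 for replicates 1, 2 and 3. That of the 18S control probe sets was 9.09 on the GFP array, against 7.65, 11.3 and 7.76, so replicate 2 was the highest in both. By its brightest probe set, Ezr was 8.90 on the GFP array, with replicates 1, 2 and 3 at 8.97, 8.94 and 8.81 (difference 0.01, SE 0.12, limma adjusted p = 0.977), so that probe set does not show the labelled over-expression. Whether its probes can detect the transgene was not tested. Of the osteoblast markers measured, Col1a1 (11.3 in GFP) and Col1a2 (12.3 in GFP) were bright. Sp7 (5.05 in GFP) lay near the median and Alpl (3.63 in GFP) was dim, while Ibsp (2.78 in GFP) and Dmp1 (1.90 in GFP) were near background on every array. The cells are therefore described by their label, not by a full osteoblast profile.

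The members lay on both sides of GFP. Aldh3a1, Aldh3a2, Aldh1a1, Aldh7a1, Akr1c14 and Akr1c13 lay above GFP on all 3 ezrinT567A-GFP arrays. Aldh9a1 and Akr1b8 lay below GFP on all 3, and Aldh2 lay on both sides of it. With limma, 0 of the 9 had an adjusted p under 0.05, as did 0 of all 18193 genes (0%). At an unadjusted p under 0.05 there were 4 of the 9, namely Aldh3a1, Aldh3a2, Aldh7a1 and Akr1c14, against 2540 of all genes (14%).

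By their means, 6 of the 9 lay above GFP, beside 56.1% of all genes, and 3 below, beside 43.9%. The count of 6 of 9 genes above GFP on all 3 arrays stands beside 32.5% of all genes. The count of 2 of 9 below on all 3 stands beside 25.6%. At least 2-fold higher were 3 of the 9 (Aldh3a1, Akr1c14 and Akr1c13), beside 0.973% of all genes, and 0 were at least 2-fold lower, beside 0.704%. The median difference of the 9 was 0.62, against 0.03 over all genes. Because the genes were proposed with these results known, nothing further is read from these gaps.

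**Figure D1:**
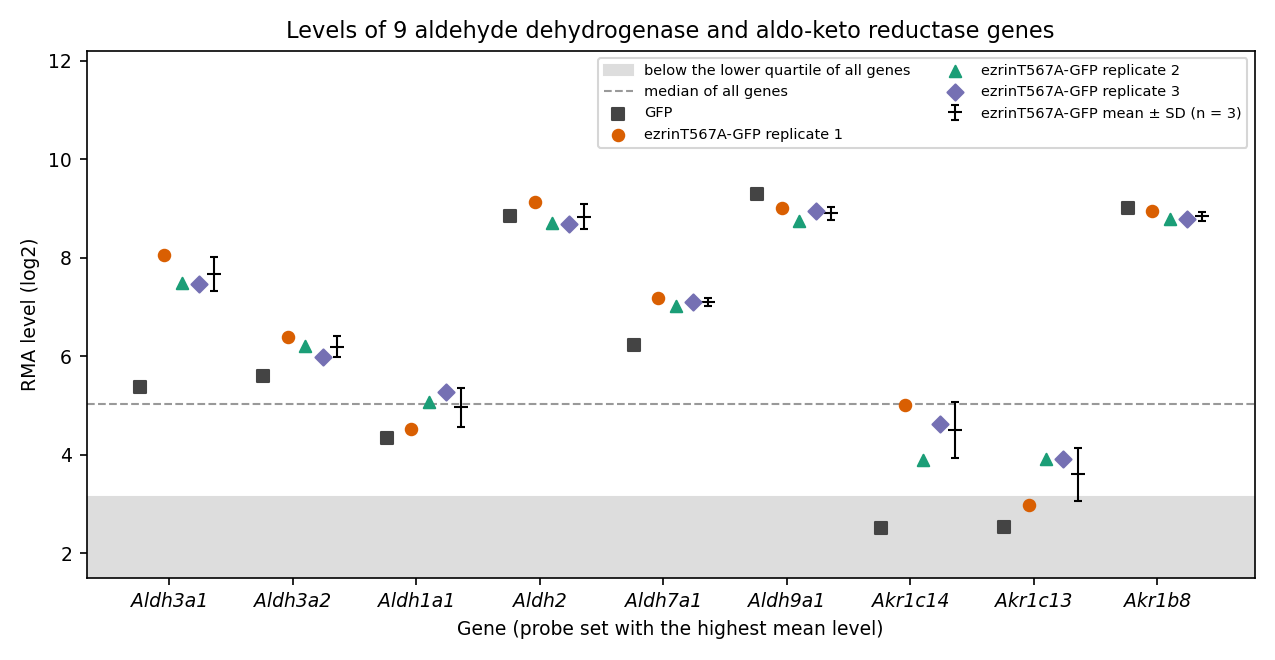
RMA level (log2, y axis) of the 9 measured genes (x axis) on the GFP array and on each ezrinT567A-GFP array, with the ezrinT567A-GFP mean ± SD (n = 3); the grey band lies below the lower quartile of all genes and the dashed line is their median. The GFP square of Aldh3a1 (5.38) lies far under its 3 ezrinT567A-GFP points (7.46 to 8.06), while Akr1c14 and Akr1c13 start inside the grey band.

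Among the aldehyde dehydrogenases, Aldh3a1 stood furthest from GFP. It encodes the enzyme that oxidises aromatic and medium-chain aldehydes and is abundant in the cornea. The GFP array read 5.38, and replicates 1, 2 and 3 read 8.06, 7.49 and 7.46. The 3 replicates all lay above the single GFP value, and replicate 1 was the highest. The mean was 7.67 ± 0.34 (SD, n = 3), a difference of 2.29 (SE 0.29), which is 4.88-fold, and it was the 12th largest difference on the higher side among all genes. This missed the threshold of limma's test (adjusted p = 0.187, adjusted over all genes). The gene had 1 probe set, so no further probe set could be set beside it. The GFP level of 5.38 lay above the median of all genes. It was inside the range of the genes of other tissues only through Ins2 (5.41 in GFP). The size of the difference is uncertain if that level is background.

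Aldh3a2, the microsomal fatty aldehyde dehydrogenase, is the next protein-coding gene to Aldh3a1 on chromosome 11. Its level was 5.61 in GFP and 6.39, 6.21 and 5.97 in replicates 1, 2 and 3. All 3 arrays lay above GFP, and replicate 1 was again the highest. The difference was 0.59 (SE 0.20, limma adjusted p = 0.338), or 1.5-fold. Its GFP level also lay inside the range of the genes of other tissues only through Ins2.

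The genes around this pair are given by position. Usp22, a histone deubiquitinase on the other side of Aldh3a1, lay above GFP on all 3 arrays (8.14 in GFP, difference 0.46, SE 0.12, limma adjusted p = 0.282). Slc47a1, a drug and cation exporter beyond Aldh3a2, was near background at 1.84 in GFP (difference 0.10), as was Rnf112 after it (2.78 in GFP, difference -0.05). Tnfrsf13b and Kcnj12, next in the other direction, differed by 0.11 and -0.09. Genes of chromosome 11 brighter than the median gene had a median difference of 0.11 over 764 genes.

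Aldh7a1, or antiquitin, acts in lysine breakdown. Its level was 6.22 in GFP and 7.18, 7.02 and 7.10 in replicates 1, 2 and 3, the tightest set of the 9 genes, with an SD of 0.08. The difference was 0.89 (SE 0.13, limma adjusted p = 0.198), or 1.85-fold. Its other 2 probe sets had mean levels of 3.58 and 2.52 and differences of -0.14 and 0.11, so they did not show it. With the mean of all 3 probe sets the difference was 0.28. On chromosome 18, genes above the median level had a median difference of 0.21 over 222 genes, with 0.33, 0.09 and 0.18 in replicates 1, 2 and 3. The part of the chromosome in the difference of Aldh7a1 was not tested.

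Aldh1a1, the cytosolic enzyme that makes retinoic acid from retinaldehyde, was dim in GFP (4.34) and in replicate 1 (4.52). Replicates 2 and 3 reached 5.08 and 5.28. All 3 arrays lay above GFP, replicate 1 by only 0.18, and the mean difference of 0.62 had an SE of 0.33 (limma adjusted p = 0.491). These levels lay inside the range of the genes of other tissues. Aldh1a7, its close relative and direct neighbour on chromosome 19, was 8.11 in GFP and 7.98, 8.35 and 8.28 in the replicates (difference 0.10, SE 0.19). Probes of such similar genes may pick up each other's RNA, which was not tested.

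Aldh2, the mitochondrial enzyme that clears acetaldehyde, was 8.85 in GFP and 9.12, 8.69 and 8.68 in replicates 1, 2 and 3. Replicate 1 lay above GFP and the others below it, and the mean difference was -0.02 (SE 0.22, limma adjusted p = 0.981). Its other 4 probe sets, with mean levels from 2.92 to 4.19, gave differences from -0.47 to 0.21. They differ in sign, so no direction is given for this gene.

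Aldh9a1, which acts in carnitine synthesis, was the member with the lowest difference. Its level was 9.28 in GFP and 9.01, 8.75 and 8.95 in replicates 1, 2 and 3. All 3 arrays lay below GFP, with a difference of -0.38 (SE 0.14, limma adjusted p = 0.361). Its second probe set, with a mean level of 7.60, also lay below GFP on all 3 arrays, by -0.17 on average.

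Other genes on the chromosome of Aldh9a1 also lay below GFP. Genes of chromosome 1 above the median level had a median difference of -0.34 over 510 genes, with -0.31, -0.37 and -0.29 in replicates 1, 2 and 3. Beside Aldh9a1 lie Tmco1, a calcium channel of the endoplasmic reticulum (9.37 in GFP, difference -0.51, SE 0.10), and Mgst3, a microsomal glutathione transferase (9.42 in GFP, difference -0.82, SE 0.10). Uck2, a uridine-cytidine kinase, is the next gene beyond Tmco1 and differed by -0.56 (SE 0.26). Fam78b after it was dim (3.51 in GFP, difference -0.41). On the other side, beyond Mgst3, Lrrc52 was near background (2.16 in GFP, difference -0.22). Rxrg after it was dim (4.42 in GFP) and differed by 0.11. The difference of Aldh9a1 is thus close in size to that of its chromosome, and the part of the chromosome in it was not tested.

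The aldo-keto reductase members also lay on both sides of GFP. Akr1c14 encodes a 3-alpha-hydroxysteroid dehydrogenase, and Akr1c13 lies in the same Akr1c cluster on chromosome 13, with Akr1c18 between them. Akr1b8, an aldose reductase-like enzyme first known as a gene induced by fibroblast growth factor, lies in the Akr1b cluster on chromosome 6.

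The stretches before the annotated starts of 4 members are shown because the Akr1c genes and the 2 members below GFP differ in direction. They were taken from RefSeq promoter windows of build GRCm38.p6. Windows of 6 of the 10 genes were used here, and no window of the other genes is reported. Each stretch is the 250 bases upstream of a start, 5′ to 3′ on the strand of the gene. The Akr1c14 stretch (chr13:4059341-4059590, plus strand) lies wholly inside the annotated span of the gene. The others are chr13:4190937-4191186 for Akr1c13, chr6:34353896-34354145 for Akr1b8 and chr1:167349741-167349990 for Aldh9a1, all on the plus strand. The last 19 bases of the Akr1c13 stretch and the last 28 of the Aldh9a1 stretch also lie inside the annotated gene. Capitals mark matches on either strand to TGACNNNGC (the core of the antioxidant response element), GCGTG (the core of the xenobiotic response element) or TATAAA (the box bound by the general factor TBP).
Akr1c14: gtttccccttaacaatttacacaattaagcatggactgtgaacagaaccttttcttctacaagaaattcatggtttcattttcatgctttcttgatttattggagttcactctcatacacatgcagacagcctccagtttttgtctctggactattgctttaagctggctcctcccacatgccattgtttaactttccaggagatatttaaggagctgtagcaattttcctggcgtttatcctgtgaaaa
Akr1c13: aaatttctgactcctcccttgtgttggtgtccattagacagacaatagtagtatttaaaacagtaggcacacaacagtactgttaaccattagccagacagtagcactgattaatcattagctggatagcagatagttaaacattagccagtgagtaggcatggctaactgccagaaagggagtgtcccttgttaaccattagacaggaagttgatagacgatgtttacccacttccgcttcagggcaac
Akr1b8: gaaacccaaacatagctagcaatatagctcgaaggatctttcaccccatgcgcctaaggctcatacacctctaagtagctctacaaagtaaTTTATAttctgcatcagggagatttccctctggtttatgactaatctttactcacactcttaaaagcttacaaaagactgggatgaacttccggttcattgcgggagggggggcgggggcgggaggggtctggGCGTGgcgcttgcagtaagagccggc
Aldh9a1: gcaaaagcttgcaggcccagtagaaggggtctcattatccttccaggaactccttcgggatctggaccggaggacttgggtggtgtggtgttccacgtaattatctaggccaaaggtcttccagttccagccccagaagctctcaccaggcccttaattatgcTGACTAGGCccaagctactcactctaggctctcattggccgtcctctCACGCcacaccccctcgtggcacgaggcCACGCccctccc

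These 3 motifs were chosen with the values known. The 250 bases of Akr1c14 and Akr1c13 held 0 matches, which says only that these letters are not in those windows. Akr1b8 held GCGTG at 26 bases and TATAAA, on the opposite strand, at 159 bases before its start. Among the windows used, Aldh9a1 held the only TGACNNNGC match, at 87 bases. It also held 2 GCGTG matches on the opposite strand, at 40 and 12 bases, of which that at 12 bases lies inside the annotated gene. Aldh3a2, whose window is not shown, held GCGTG at 117 bases, and the 2 windows of Aldh1a1 held 0 matches. The Aldh3a2 window and the second window of Aldh1a1 lie wholly inside the annotated genes. Over 27025 genes, 10.1% of such stretches held TGACNNNGC, 28.2% GCGTG and 13% TATAAA. Matches to TGACNNNGC and GCGTG can share letters, but did not overlap in these windows.

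Akr1c14 was near background in GFP, at 2.51, and reached 5.01, 3.88 and 4.63 in replicates 1, 2 and 3. Replicate 2 was the lowest of the 3, and all 3 lay above the single GFP value. The difference was 2.0 (SE 0.47, limma adjusted p = 0.261), or 3.99-fold. All 4 values were dim, so the fold rests on a GFP level that is not shown to be above background.

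Akr1c13 was likewise near background in GFP, at 2.54, and in replicate 1, at 2.98, while replicates 2 and 3 both reached 3.91. Its difference was 1.06 (SE 0.44, limma adjusted p = 0.391), and without replicate 2 or without replicate 3 it was 0.91, under 2-fold. Replicate 1 was thus the lowest of the 3 arrays for Akr1c13 and the highest for Akr1c14. A further probe set is annotated to both Akr1c12 and Akr1c13 and cannot be assigned to either. It gave 4.20 in GFP and 4.25, 4.70 and 5.24 in the replicates, a difference of 0.53, also above GFP on all 3 arrays.

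The Akr1c genes next to them lay closer to GFP. Akr1c18, the progesterone-inactivating 20-alpha-hydroxysteroid dehydrogenase between them, was 4.23 in GFP and 3.96, 3.88 and 3.88 in the replicates, a difference of -0.32 (SE 0.11, limma adjusted p = 0.340). Akr1c19 (difference -0.15, SE 0.20), Akr1c12 (difference -0.11, SE 0.13) and Akr1c6 (difference 0.15, SE 0.17) follow in chromosomal order. Akr1c18 and Akr1c12 were dim on every array, and Akr1c19 and Akr1c6 were near background on every array. Whether the differences of these genes differ from those of Akr1c14 and Akr1c13 was not tested.

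Akr1b8 was bright and steady, at 9.0 in GFP and 8.94, 8.79 and 8.79 in replicates 1, 2 and 3. All 3 arrays lay slightly below GFP, with a difference of -0.16 (SE 0.12, limma adjusted p = 0.620). Its neighbour Akr1b10, an aldo-keto reductase of the same cluster, was on the other side of GFP, at 6.59 in GFP and 6.92, 7.09 and 7.04 in the replicates (difference 0.42, SE 0.13, limma adjusted p = 0.306).

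**Figure D2:**
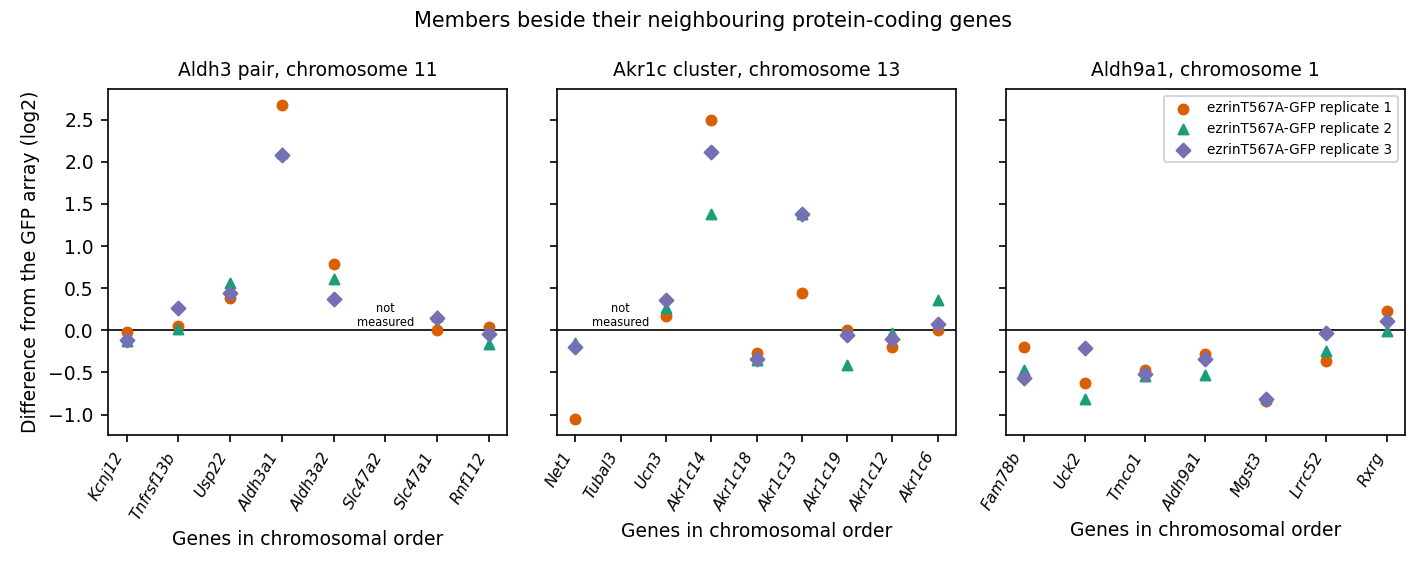
Difference of each ezrinT567A-GFP array from GFP (log2, y axis) for genes in chromosomal order (x axis) around Aldh3a1 and Aldh3a2, in the Akr1c cluster and around Aldh9a1. Akr1c14 and Akr1c13 stand above GFP with Akr1c18 (-0.32) below it in between, and Tmco1 and Mgst3 lie below GFP with Aldh9a1.

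**Figure D3:**
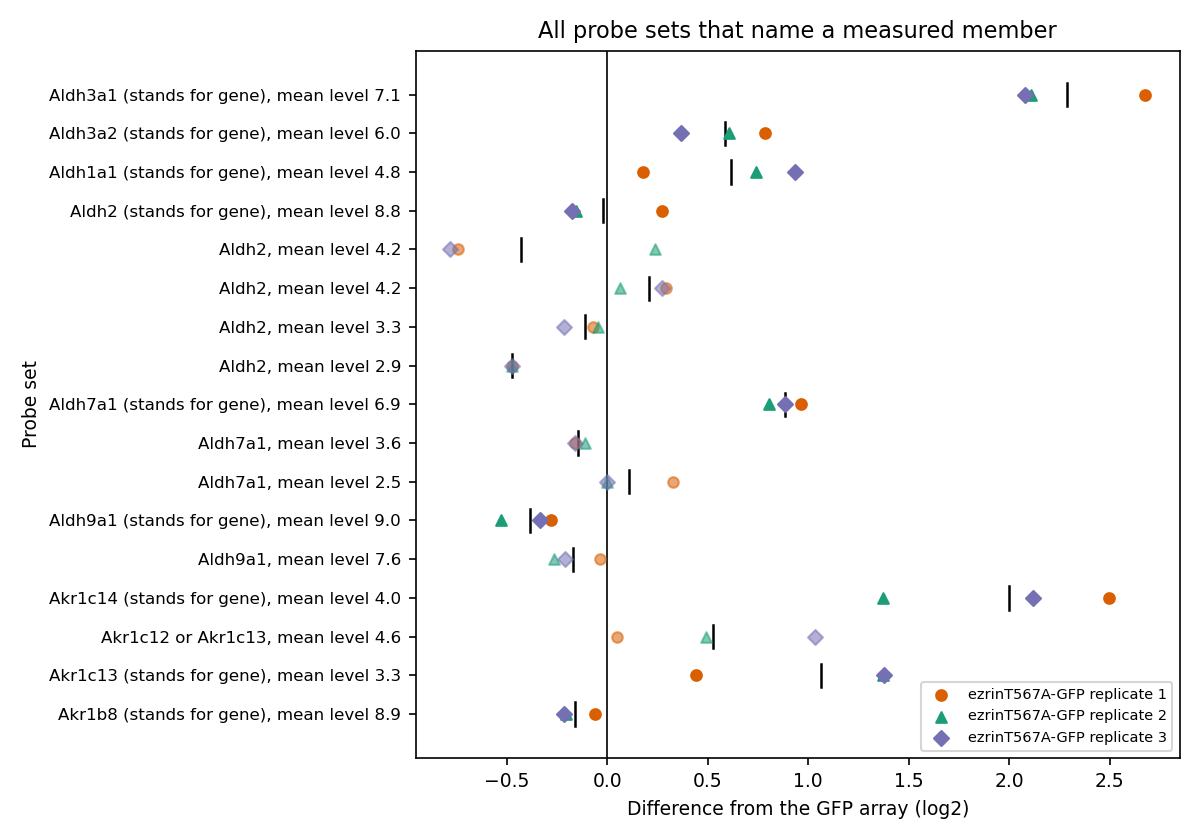
Difference from the GFP array (log2, x axis) of each ezrinT567A-GFP array for all probe sets that name a measured gene (y axis), with the mean as a vertical line; fainter points are probe sets that do not stand for the gene. The other probe sets of Aldh7a1 (-0.14 and 0.11) and Aldh2 (-0.47 to 0.21) do not repeat the pattern of the brightest.

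Compared by profile over the 4 arrays, centred on each gene's own mean, the genes closest to Aldh3a1 among 18192 others were Map2, a neuronal microtubule-associated protein (root mean square distance 0.15 log2 units), the interferon-induced Oasl1 (0.20) and the membrane transporter-like Mfsd6 (0.21). Map2 was near background in GFP, at 1.80, and Oasl1 went from 6.53 in GFP to 8.71, 8.57 and 8.26. Those closest to Aldh9a1 were Dcaf1 (0.0053), the lactate transporter gene Slc16a1 (0.017) and C2cd5 (0.018). The likeness covers only 4 arrays.

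**Figure D4:**
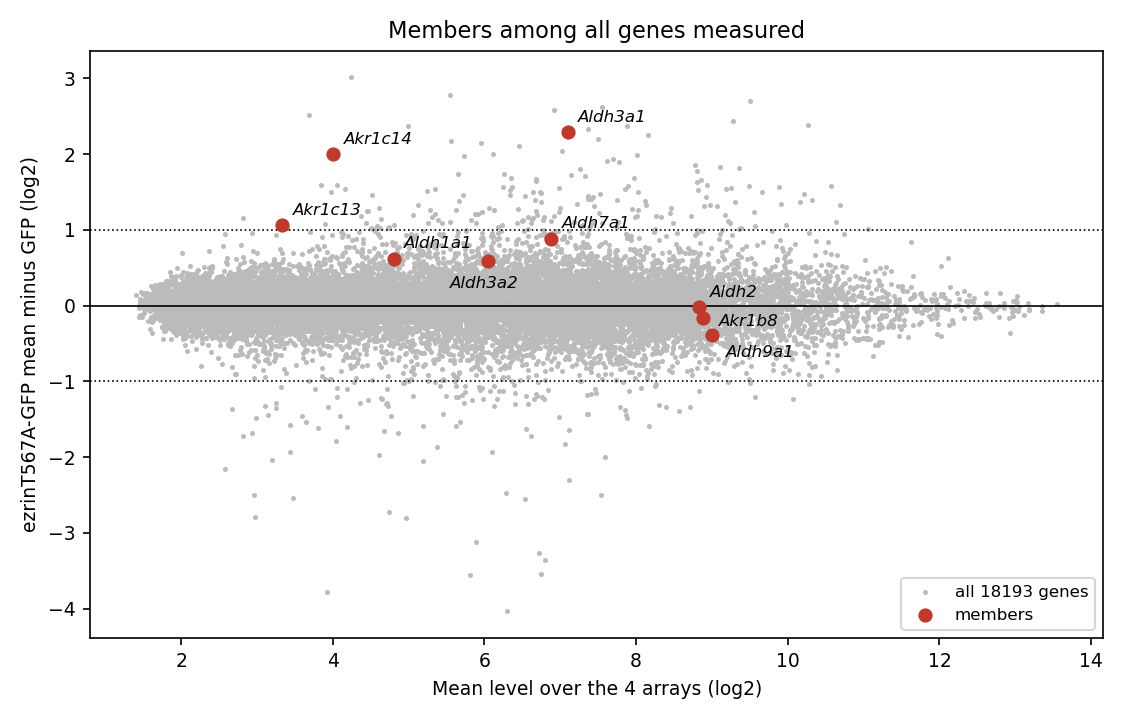
Difference of the ezrinT567A-GFP mean from GFP (log2, y axis) against the mean level over the 4 arrays (log2, x axis) for 18193 genes (grey) and the 9 measured genes (red); dotted lines mark 2-fold. Aldh3a1 (2.29) and Akr1c14 (2.0) lie high in the cloud, at mean levels of 7.10 and 4.01, and Aldh2, Akr1b8 and Aldh9a1 lie near or below 0.

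The other genes of both families were counted in the same way. Of 14 other aldehyde dehydrogenases, 11 had means above GFP and 3 below, with a median of 0.07 (0.026 without replicate 1), beside 56.1% and 43.9% of all genes, and limma called 0 of them in either direction. Aldh6a1, the mitochondrial methylmalonate semialdehyde dehydrogenase of valine breakdown, averaged 6.28 ± 0.28 (SD, n = 3) against 5.52 in GFP, which is higher by 0.76 (SE 0.25, limma adjusted p = 0.326). Aldh18a1, which makes the precursor of proline, differed by 0.30 (SE 0.18), with probe sets from 0.01 to 0.60. The retinaldehyde dehydrogenase Aldh1a2 (difference 0.26, 2.42 in GFP) and the succinate semialdehyde dehydrogenase Aldh5a1 (difference -0.22, 2.77 in GFP) were near background.

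Of 14 other aldo-keto reductases, 6 lay above GFP and 8 below, beside 56.1% and 43.9% of all genes. Their median was -0.01 (0.019 without replicate 1), and 0 passed the test. Besides Akr1b10 and Akr1c18, the smallest p belonged to Akr1d1, the steroid 5-beta-reductase, near background at 2.69 in GFP (difference -0.25), and Akr7a5, an aflatoxin aldehyde reductase (8.13 in GFP, difference 0.22, probe sets -0.24 to 0.22). In both lists of other family genes, 0 were at least 2-fold higher or lower, beside 0.973% and 0.704% of all genes, and nothing is read from this.

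Short-chain and medium-chain carbonyl enzymes, which act on overlapping substrates, counted 11 of 14 above GFP and 3 below, beside 56.1% and 43.9% of all genes. On all 3 arrays 9 lay above GFP and 2 below, beside 32.5% and 25.6% of all genes. Their median was 0.25, beside 0.03 for all genes. Of the 14, 0 passed the test, and 5 had an unadjusted p under 0.05, beside 14% of all genes. The carbonyl reductase Cbr2 was 6.49 in GFP and 7.77, 7.5 and 7.36 in replicates 1, 2 and 3, a difference of 1.06 (SE 0.20, limma adjusted p = 0.231). Cbr4, a mitochondrial reductase of fatty acid synthesis, was 6.59 in GFP and 7.40, 7.44 and 7.33 (difference 0.80, SE 0.12, limma adjusted p = 0.198). Cbr3 (0.69, SE 0.20) and the xylulose reductase Dcxr (0.47, SE 0.12) were also above GFP on all 3 arrays.

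Genes of retinoic acid supply and response, next to Aldh1a1 in the pathway, had a median difference of 0.02 (0.077 without replicate 2 and 0.16 without replicate 3). Of 13 genes, 7 lay above and 6 below GFP, beside 56.1% and 43.9% of all genes, and 0 passed the test. Rdh11, a retinal reductase, was 6.45 in GFP and 7.25, 7.09 and 7.26 in the replicates (difference 0.75, SE 0.13, limma adjusted p = 0.223). The retinoic acid receptor Rarb, itself a retinoic acid target, was dim (3.37 in GFP, difference 0.53, SE 0.20). Crabp2, a carrier of retinoic acid, was bright (11.9 in GFP, difference 0.25, SE 0.10), and Lrat, which esterifies retinol, was near background (1.90 in GFP, difference 0.30). Cyp26a1, the retinoic acid hydroxylase used as a readout, was 3.74 in GFP, dim on every array, and differed by -0.06.

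Of 12 glutathione transferases, which remove lipid aldehydes by conjugation, 7 lay above and 5 below GFP, beside 56.1% and 43.9% of all genes. Their median was 0.07, and 0 passed the test. That median was 0.0070 without replicate 1 and 0.17 without replicate 3. Gstm5, dim in GFP at 4.43, was 5.32, 5.79 and 5.68 in the replicates (difference 1.17, SE 0.23, limma adjusted p = 0.231). Mgst3 on chromosome 1, described above beside Aldh9a1, had probe sets from -0.82 to 0.04. Gsto1 (10.8 in GFP, difference -0.62, SE 0.15) and Gstt1 (7.86 in GFP, difference -0.61, SE 0.20) were below GFP on all 3 arrays.

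The list for NRF2, the antioxidant regulator, held its targets together with Nfe2l2 and Keap1. It had a median difference of 0.10 (0.014 without replicate 1). Of its 12 genes, 8 lay above and 4 below GFP, beside 56.1% and 43.9% of all genes, and 0 passed the test. The quinone reductase Nqo1 was 7.88 in GFP and 8.43, 7.78 and 7.72 in replicates 1, 2 and 3, on both sides of GFP (difference 0.10, SE 0.33). The glutathione synthesis subunit gene Gclm was 8.53 in GFP and 8.72, 8.24 and 8.28. Hmox1, the haem oxygenase, was 7.28 in GFP and 8.03, 8.18 and 8.22 (difference 0.86, SE 0.13, limma adjusted p = 0.200). Osgin1 (4.50 in GFP, difference 0.50, SE 0.19) and the cystine transporter gene Slc7a11 (4.06 in GFP, difference 0.37, SE 0.46) were dim in GFP. Nfe2l2, which encodes NRF2, differed by 0.13 (SE 0.11).

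The measured genes of the AhR list included drug-metabolising genes that dioxin induces with Aldh3a1 in other cells (Cyp1a1, Cyp1a2, Cyp1b1 and Nqo1). The list also held Ahr, Arnt, Ahrr, Tiparp and Nfe2l2, and Nqo1 and Nfe2l2 are in the NRF2 list too. The median difference was 0.02 over these 9 genes, and 0.0041 without replicate 1 and -0.00020 without replicate 3. Of these, 6 lay above and 3 below GFP, beside 56.1% and 43.9% of all genes. At an unadjusted p under 0.05 limma found 0, beside 14% of all genes. Cyp1a1, the classical readout of AhR, was 3.19 in GFP and 3.32, 3.04 and 3.11 in the replicates. It was dim on every array and near background on 2 of them. Cyp1b1 was 3.29 in GFP (difference 0.10, SE 0.35), dim on every array and near background on 1. Ahr itself was 7.97 in GFP (difference -0.05, SE 0.18).

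**Figure D5:**
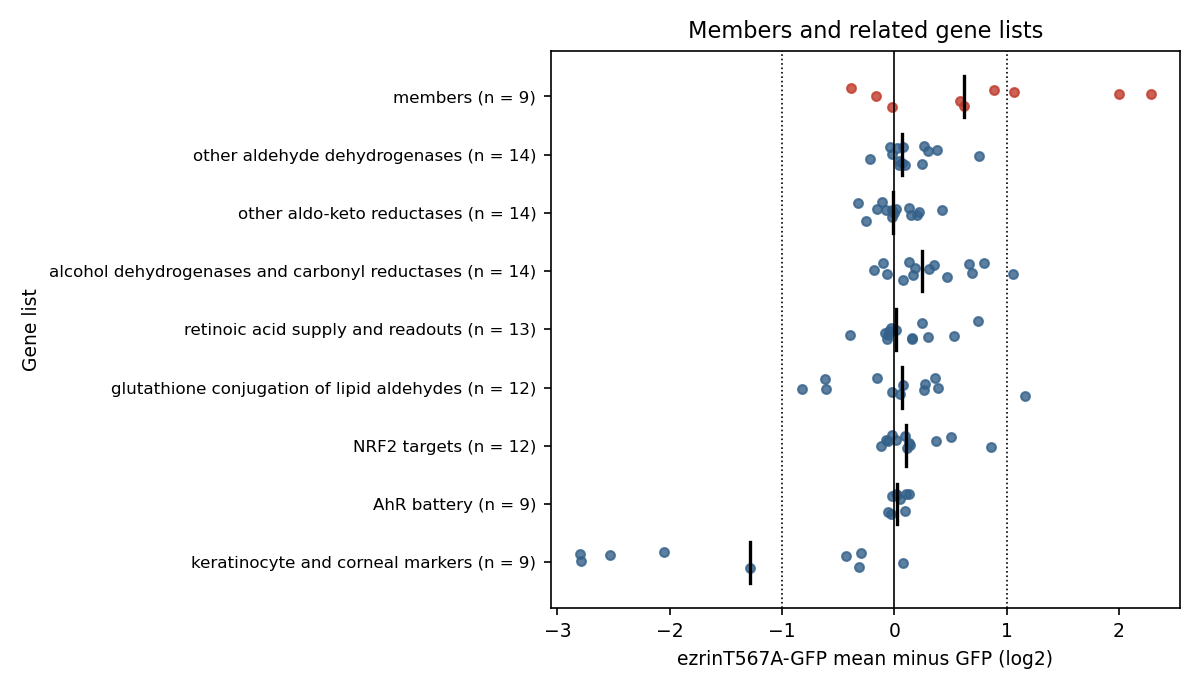
Difference of the ezrinT567A-GFP mean from GFP (log2, x axis) for each measured gene of the 9 members and 8 related lists (y axis), with the list median as a vertical line; dotted lines mark 2-fold and the vertical scatter within a list carries no value. The members' median is 0.62, and those of the 7 lists of related enzymes, targets and regulators lie between -0.01 and 0.25. That of the keratinocyte and corneal markers is -1.28.

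Markers of other cell types were set beside these values because Aldh3a1 is a corneal gene. Of 9 keratinocyte and corneal markers, 8 lay below GFP on all 3 arrays, beside 25.6% of all genes, and 0 passed limma's test (lowest adjusted p = 0.146). Summed on the linear scale, the 9 came to a log2 level of 8.76 for GFP, against 7.14, 7.36 and 7.04 for replicates 1, 2 and 3, and their part in the differences of the members was not tested. Krt5 was 6.73 in GFP and 4.72, 4.75 and 4.57 in replicates 1, 2 and 3. The corneal keratin Krt12 was near background on every array (2.29 in GFP). Of 6 leukocyte markers, Ptprc lay near background (2.22 in GFP). Csf1r was bright (11.9 in GFP, difference 0.15). Summed in the same way, the 6 came to 11.93 for GFP and 11.91, 12.24 and 12.10 for the replicates, close to the level of Csf1r alone. Near background on every array were the endothelial markers Pecam1 (2.52 in GFP) and Tek (2.14), the adipocyte markers Adipoq (1.98) and Cidec (2.44) and the hepatocyte markers Alb (2.23) and Cyp2e1 (2.95). The other markers of these 3 cell types were dim but above that level, namely Cdh5 (3.70 in GFP) and Kdr (4.02), Fabp4 (4.50), and Apoa1 (4.57) and Ttr (4.70). In a bulk culture, fewer cells expressing a gene and less RNA per cell cannot be told apart.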

How the data were processed

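Total RNA of 4 K7M2 samples was hybridised to one-colour Affymetrix arrays, per the labels. The deposited values are log2 levels per probe set, made by the authors with RMA, per the submitters' processing notes; that the scale is log2 was read from the values, and the program that ran RMA is not given in the sources used here. The method brings the arrays to similar distributions, so a change in total RNA would not show.

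Of 45101 probe sets, 34958 had 1 gene symbol, 932 several and 9211 were not listed. Tests used single-gene probe sets, without 64 controls, and for each of 18193 genes the one with the highest mean level. limma 3.58.1 in R 4.3.3 (lmFit, eBayes with a mean trend) compared ezrinT567A-GFP (3 arrays) with GFP (1 array), two-sided, with 2 residual and 2.23 prior degrees of freedom, adjusted after Benjamini and Hochberg over all genes (threshold 0.05). SE is the moderated standard error. The number of arrays limits the precision. In 10 simulations with the same numbers of arrays and 18193 genes, 61.8% of 4-fold and 7.9% of 2-fold changes were found by limma. On average 0.9 unchanged genes were called per simulation. The spreads of the genes were shuffled among them, so any link between level and spread was not kept.

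The members and lists were chosen with earlier results of these data known. Named beside the members were the 4 genes of each related list with the smallest p, the 3 nearest profiles of the highest and lowest member, and, chosen after their values were seen, chromosomal neighbours, the marker genes quoted, Gclm, Cyp26a1 and Cyp1a1. Gene order came from RefSeq (GRCm38.p6). Alternatives were other array scalings, the mean of probe sets, _at probe sets alone, no dim genes, other eBayes settings and leaving out each replicate.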

Additional observations from a re-analysis of the deposited data

How the results depend on the processing

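The count of 0 genes with an adjusted p under 0.05 was 34 after quantile normalization, 30 after median centring, 9 with a robust prior, 6 when a gene's probe sets were averaged and 3 without dim genes, and it stayed at 0 with _at probe sets alone, without a mean trend and without replicate 1, 2 or 3; the cause was not tested. Under all of these alternatives 0 of the members passed, and the lowest adjusted p of Aldh3a1 was 0.0600. Without dim genes, which leaves 6 members, 3 lay above GFP and their median was 0.28. Except for Aldh2, each member kept its direction under each alternative that could measure it. Aldh2 lay between -0.16 and 0.059 when a replicate was left out, and changed sign without replicate 2 or 3. Aldh3a1 ranged from 2.09 to 2.39, Akr1c14 from 1.75 to 2.31 and Aldh1a1 from 0.46 to 0.84. For the related lists, the median of alcohol dehydrogenases and carbonyl reductases was 0.31 with _at probe sets alone and 0.35 without dim genes, and that of retinoic acid genes 0.15 and 0.16. Without dim genes the median was 0.20 for other aldehyde dehydrogenases (6 genes) and 0.13 for other aldo-keto reductases (5 genes). When a replicate was left out, the median of alcohol dehydrogenases and carbonyl reductases ran from 0.26 to 0.31 and that of retinoic acid genes from 0.018 to 0.16, the members above GFP numbered 6 to 7, and the members' median ran from 0.58 to 0.84. No paired analysis was possible because the single GFP array shares at most 1 replicate number with the ezrinT567A-GFP arrays.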
